A study of Mus musculus with 12 samples.

Results

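The genes described here encode the apical protein uptake machinery of the suckling intestine, 5 genes chosen by name (Cubn, Amn, Lrp2, Dab2 and Mamdc4) out of 19938 genes tested. All 5 were measured, through 6 array features, since Dab2 had 2. They were picked by gene name for their role in protein uptake, with earlier results of these data known. The samples were duodenum of mice of strain 129, either wild type or with Onecut-2 ablated, taken at postnatal day 15, while pups suckle, or at day 30, after weaning. The 4 groups (wild type day 15, knockout day 15, wild type day 30, knockout day 30) had 3 arrays each. Males and females were mixed, and the RNA on an array came from a pool of 5 to 8 animals, so SDs and p-values measure the spread between pools and not between single mice. The animals were untreated, and the labels name neither the construct nor a driver of the ablation.

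Some enterocytes of the suckling intestine take up milk proteins whole, through a system of apical pits, tubules and large vacuoles. These proteins are digested in lysosomes, because luminal digestion is still immature. All samples here were duodenum, and uptake itself was not measured. Cubilin, encoded by Cubn, is a large peripheral receptor for intrinsic factor with vitamin B12 and for many other proteins; it has no membrane anchor and depends on amnionless, encoded by Amn, to reach the apical surface. Megalin, encoded by Lrp2, is a giant member of the low-density lipoprotein receptor family that works beside cubilin in the kidney and yolk sac. Dab2 encodes a clathrin adaptor that binds the tails of such receptors and loads them into coated pits, and Mamdc4 encodes endotubin, a membrane glycoprotein of the apical endosomal tubules of immature enterocytes. This uptake system is known to be lost as the epithelium matures around weaning.

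The sequences just upstream of the 3 genes that differed most with age are shown for reference, since those genes fell together. RefSeq (build GRCm38.p6) gave a start site window for all 5 genes, 6 windows in all because Dab2 had 2. The 250 bases before each start site read 5′ to 3′ on the gene's strand, with capitals for matches to a searched motif.
Cubn, chr2:13491877-13492126, minus strand: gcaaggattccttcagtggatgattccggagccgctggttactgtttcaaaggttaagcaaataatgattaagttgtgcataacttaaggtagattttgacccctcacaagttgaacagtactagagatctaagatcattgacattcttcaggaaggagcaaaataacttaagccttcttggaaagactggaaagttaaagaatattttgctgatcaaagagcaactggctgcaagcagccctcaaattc
Mamdc4, chr2:25571317-25571566, minus strand: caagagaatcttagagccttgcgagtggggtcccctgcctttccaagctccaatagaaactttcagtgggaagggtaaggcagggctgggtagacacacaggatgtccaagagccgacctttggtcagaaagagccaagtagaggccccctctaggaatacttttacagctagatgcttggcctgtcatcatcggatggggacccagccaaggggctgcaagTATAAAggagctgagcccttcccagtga
Dab2, first start, chr15:6299539-6299788, plus strand: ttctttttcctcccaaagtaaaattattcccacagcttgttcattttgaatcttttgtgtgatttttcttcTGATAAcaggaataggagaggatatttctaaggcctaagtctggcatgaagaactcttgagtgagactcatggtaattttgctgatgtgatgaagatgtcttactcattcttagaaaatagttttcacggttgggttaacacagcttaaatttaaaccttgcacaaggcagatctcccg
Dab2, second start, chr15:6386498-6386747, plus strand: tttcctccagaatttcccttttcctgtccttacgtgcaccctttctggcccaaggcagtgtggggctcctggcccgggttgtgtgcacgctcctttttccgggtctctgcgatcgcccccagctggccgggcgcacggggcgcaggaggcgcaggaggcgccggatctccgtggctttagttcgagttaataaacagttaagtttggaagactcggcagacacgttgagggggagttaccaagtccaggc
The letters ATTGATT and ATCGAT, core forms bound by Onecut factors, were searched on both strands of windows of 300 bases (250 before and 50 after the start). Neither was found in any of the 6 windows, against 2.86% and 0.925% of 32851 windows of all genes. With the sequences in view, 5 further motifs were searched in the same way, of which the GATA forms share all letters but the first and so never match the same bases. TATAAA, the TATA box, was found in 1 of the 6 windows, beginning 28 bases before the Mamdc4 start, and in 13.6% of all windows. The GATA core TGATAA began 179 bases before the first Dab2 start and also lay after the Mamdc4 start (9.05% of all windows), and AGATAA lay after the first Dab2 start (11.2% of all windows). TTTATG, bound by CDX factors, lay 67 bases before the Lrp2 start (11.9% of all windows), and CAAAGTCCA, bound by HNF4, was in none of the 6 (0.475% of all windows). A match is a run of letters and not a measured binding site.

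The deposited values are log2 values of an RMA summary per array feature, so a difference of 1 is a doubling on the linear scale. Array medians over all features lay between 7.20 and 7.25. Onecut2 itself lay between 8.09 and 8.25 on the 6 knockout arrays and between 9.50 and 9.69 on the 6 wild type arrays, though where its probes lie relative to the ablated part was not analysed. All 11 enterocyte markers lay above the median of all features in every group, and their mean per array stayed between 12.92 and 13.09. That mean joins genes that moved in opposite directions with age. In wild type 6 were called higher and 4 lower, and in knockout 5 higher and 5 lower. Of 6 ileal genes, Fabp6, Slc10a2 and Fgf15 were at the 12.7, 28.7 and 38.4 percentile of all features. The other 3 were high, with Slc51b and Slc51a at the 85.9 and 85.8 percentile and Mep1a at the 77.4 percentile, so the list as a whole was not low. Mep1a had means of 10.18 in wild type and 10.71 in knockout at day 15, and of 6.82 and 8.03 at day 30. Xist was at 11.37, 10.25 and 10.93 on wild type day 15 arrays and at 9.26, 10.67 and 9.53 on wild type day 30 arrays. On knockout arrays it ran from 10.33 to 10.81. The share of females in the pools was not tested. In bulk RNA, fewer cells of a type and less RNA per cell cannot be told apart.

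**Figure D1:**
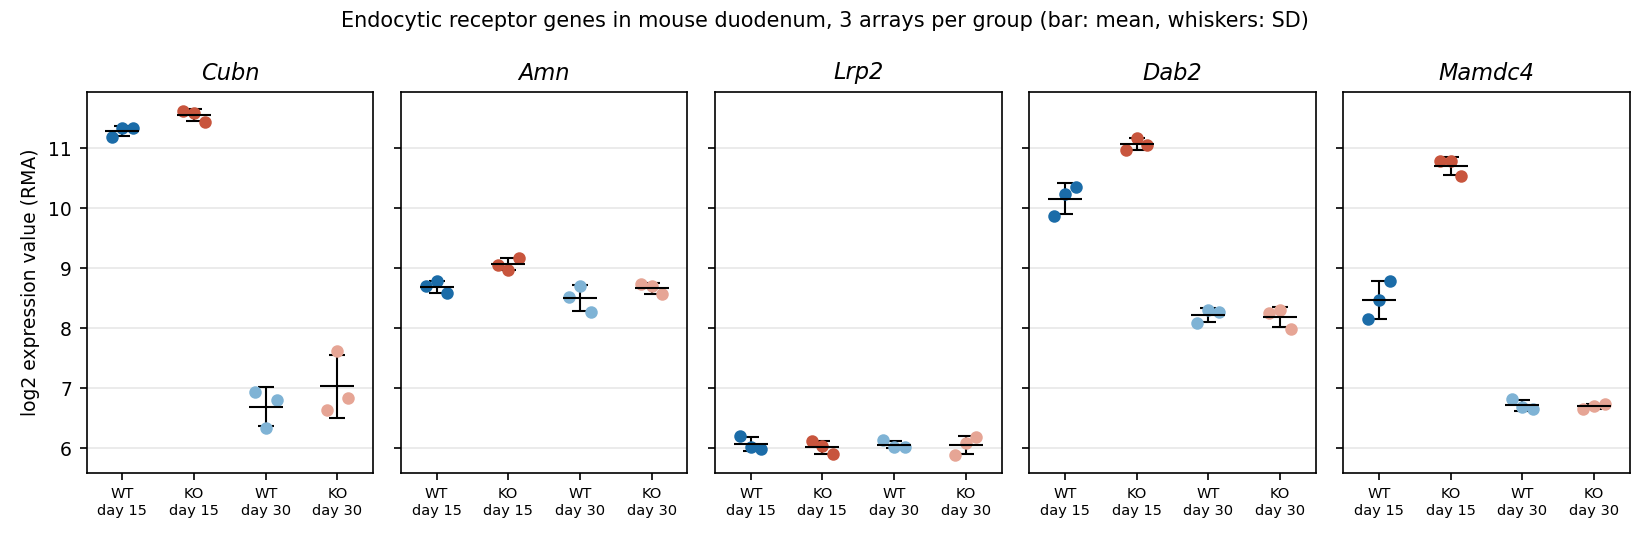
Log2 expression value (RMA, vertical axis) of each gene on each array, by genotype and day (WT, wild type; KO, knockout); points are the 3 arrays of a group, the bar is their mean and the whiskers their SD. Cubn falls from values of 11.19 to 11.62 at day 15 to values of 6.34 to 7.62 at day 30, Mamdc4 and Dab2 are higher in knockout than in wild type at day 15, and Lrp2 stays between 5.88 and 6.21.

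With age, the receptor Cubn, the adaptor Dab2 and the endosomal gene Mamdc4 fell in both genotypes, while Amn fell in knockout and did not pass the test in wild type, and Lrp2 passed in neither. Differences were tested with limma over all genes, called at an adjusted p under 0.05. In wild type 3 of 5 members were lower and 0 higher, where 29.3% of all genes were called, 17% lower and 12.3% higher. In knockout 4 of 5 were lower and 0 higher, where 31% of all genes were called, 17.2% lower and 13.8% higher. The median difference over all genes was 0.022 in wild type and 0.026 in knockout. All day 30 arrays lay below all day 15 arrays for 3 of 5 members in wild type, as for 23.1% of all genes, and for 4 of 5 in knockout, as for 22% of all genes. The age comparisons of the genotypes share no arrays.

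Cubn had the steepest fall of the set in wild type. Its wild type values were 11.19, 11.35 and 11.34 at day 15 and 6.95, 6.34 and 6.81 at day 30. In knockout they were 11.62, 11.60 and 11.44 at day 15 and 6.64, 7.62 and 6.83 at day 30. Every day 15 array thus stood far above every day 30 array, and the groups were separated by gaps of 4.25 in wild type and 3.82 in knockout. Means in wild type were 11.29 ± 0.09 and 6.70 ± 0.32 (SD, n = 3), a log2 difference of -4.60 (SE 0.21, limma adjusted p = 9.5e-09), or 24.2-fold. In knockout Cubn fell from 11.55 ± 0.10 to 7.03 ± 0.52 (SD, n = 3), a log2 difference of -4.52 (SE 0.21, limma adjusted p = 1.0e-08). The spread at day 30 in knockout came from replicate 2, at 7.62. The day 30 group means were at the 39.93 percentile of all features in wild type and the 46.75 percentile in knockout. Cubn's difference between genotypes in the size of the fall was 0.075 (95% interval -0.57 to 0.71, limma adjusted p = 0.98). Only 3 genes in wild type and 2 in knockout had a lower log2 fold change than Cubn, whose ranks from the most negative were 4 and 3.

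Amn, whose product carries cubilin to the surface, did not follow it in size. Wild type arrays gave 8.70, 8.79 and 8.59 at day 15 and 8.52, 8.71 and 8.28 at day 30, and the groups overlapped. The log2 difference was -0.19 (SE 0.10, limma adjusted p = 0.18; 95% interval -0.41 to 0.027), but it was called at -0.29 (adjusted p = 0.040) without wild type day 30 replicate 2 and at -0.32 (adjusted p = 0.027) relative to epithelial markers. In knockout the values were 9.06, 8.97 and 9.17 at day 15 and 8.74, 8.71 and 8.57 at day 30, without overlap, and Amn fell (log2 difference -0.40, SE 0.10, limma adjusted p = 0.0083). With mean smooth muscle expression as a covariate that call was lost (-0.007, SE 0.33, limma adjusted p = 1). Over all genes, 223 were called in knockout with that covariate and 6178 without it. Cubn fell by more than Amn (difference of age changes -4.26 averaged over genotypes, exact two-sided permutation p = 0.005, the smallest that 400 relabellings of days within genotype allow; adjusted p = 0.0071 over 10 pairs of members).

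Lrp2 was not called with age in either genotype. Its wild type values were 6.21, 6.02 and 5.99 at day 15 and 6.13, 6.02 and 6.03 at day 30, and its knockout values were 6.12, 6.03 and 5.91 and then 5.88, 6.10 and 6.19. All 4 groups overlapped. The log2 differences were -0.012 in wild type (95% interval -0.20 to 0.18, limma adjusted p = 0.94) and 0.034 in knockout (95% interval -0.15 to 0.22, limma adjusted p = 0.81), and with all arrays shifted to 1 median the wild type value was 0.025. Group means of Lrp2 lay between the 27.7 and 28.7 percentile of all features, and of the 5 members Lrp2 alone dropped out of a filter on dim genes, so a flat signal near the low end of the array does not measure a stable level. Of 9 kidney genes, tissue in which Lrp2 is abundant, 0 were called with age in either genotype, and their mean ran from 6.56 to 6.85 per array.

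Dab2 and Mamdc4 fell in both genotypes. Dab2 in wild type was at 9.87, 10.25 and 10.36 at day 15 and at 8.09, 8.31 and 8.27 at day 30. It fell (log2 difference -1.94, SE 0.12, limma adjusted p = 1.4e-07). In knockout Dab2 was at 10.98, 11.18 and 11.05 at day 15 and at 8.26, 8.32 and 8.00 at day 30, and fell again (-2.88, SE 0.12, limma adjusted p = 5.1e-09). No day 15 array of either genotype reached down to a day 30 array. The other Dab2 feature, matched to a single cDNA, lay between 3.99 and 4.37 on all 12 arrays, with group means at the 5.06 to 6.63 percentile of features. With both features averaged the differences were -0.88 in wild type and -1.43 in knockout, called in both.

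In wild type Mamdc4 was at 8.16, 8.48 and 8.80 at day 15 and at 6.82, 6.69 and 6.65 at day 30, a log2 difference of -1.76 (SE 0.13, limma adjusted p = 4.8e-07), or 3.38-fold. In knockout it was at 10.80, 10.79 and 10.54 at day 15 and at 6.65, 6.71 and 6.74 at day 30, a log2 difference of -4.01 (SE 0.13, limma adjusted p = 6.3e-10), or 16.1-fold. The day 30 arrays of both genotypes lay together between 6.65 and 6.82, below all day 15 arrays. Their group means were at the 40.44 percentile of all features in wild type and the 40.05 percentile in knockout.

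Averaged over genotypes, Cubn fell by more than Dab2 (difference of age changes -2.15, exact permutation p = 0.005, adjusted p = 0.0071) and than Mamdc4 (-1.68, exact permutation p = 0.020, adjusted p = 0.025). The latter was -2.84 in wild type and -0.51 in knockout, so it came mostly from wild type. In knockout the within-array difference of Cubn and Mamdc4 overlapped between ages, through day 30 replicate 2. Neither genotype was tested alone for pairs. Dab2 and Mamdc4 differed by 0.47 (exact permutation p = 0.090, adjusted p = 0.090) as an average of -0.18 in wild type and 1.13 in knockout. That pair passed (1.73, exact permutation adjusted p = 0.0062) with both Dab2 features averaged. Since the other Dab2 feature was low and flat, averaging shrinks the Dab2 fall by arithmetic, so that pass does not show unequal falls. Of 10 pairs of members 9 passed, the exception being Dab2 with Mamdc4. The pair of Amn and Lrp2 (-0.31, exact permutation p = 0.035, adjusted p = 0.039) was lost without wild type day 15 replicate 2, wild type day 30 replicate 1 or 3, knockout day 15 replicate 3, or knockout day 30 replicate 2 or 3, with -0.25 to -0.31 and adjusted p of 0.056 to 0.078. Array signals are compressed at both ends of their range, which no step here corrects, so sizes compare less well between features than directions.

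Markers of other cells moved with age beside these falls. All 12 smooth muscle genes were lower in both genotypes, with a list mean of 10.46 to 10.84 on day 15 arrays and of 10.03 to 10.19 on day 30 arrays. Of 11 fibroblast and mesothelium genes 8 were lower in each genotype (list mean 9.62 to 9.85 at day 15 and 8.99 to 9.21 at day 30), and of 8 endothelial genes 7 were lower (8.65 to 8.80 and 8.11 to 8.30). The mean of epithelial markers shifted by less (11.83 to 11.93 at day 15 and 11.95 to 11.99 at day 30). Of these 8 genes, 5 were higher and 1 lower in wild type, and 3 higher and 1 lower in knockout. Relative to the epithelial mean, the median of all genes in wild type moved to -0.108. On that scale the differences in wild type and knockout were -4.73 and -4.59 for Cubn. They were -2.07 and -2.95 for Dab2, and -1.89 and -4.08 for Mamdc4. Mean smooth muscle expression, whose ranges at the 2 ages do not overlap, was also used as a covariate. With it the wild type calls of Dab2 (-1.34, SE 0.54, limma adjusted p = 0.39) and Mamdc4 (-1.80, SE 0.59, limma adjusted p = 0.31) ended. Without it the values were -1.94 (SE 0.12) and -1.76 (SE 0.13). Over all genes, 37 were called with age in wild type with the covariate and 5849 without it. Because the covariate follows age, a lost call cannot tell a smaller fall from a wider error. Cubn stayed called in wild type, but close to the threshold (-5.50, SE 0.94, limma adjusted p = 0.049). In knockout Cubn, Dab2 and Mamdc4 stayed called. Dab2 is also made by macrophages, and of 12 macrophage markers 2 were higher and 2 lower in each genotype, with a list mean of 8.31 to 8.55 over all arrays. The part of stromal cells in the falls beyond these values was not tested. Of 6 ileal genes 2 were lower and 1 higher in each genotype, and of 10 pancreatic genes 1 was lower.

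**Figure D2:**
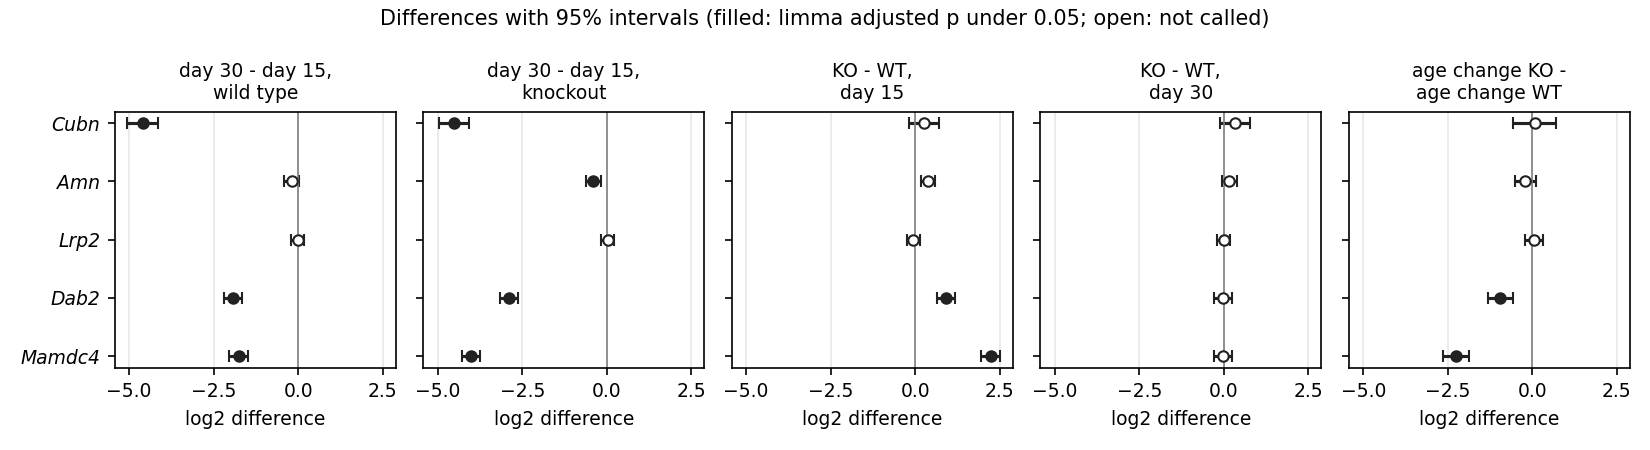
Log2 differences (horizontal axis) of each gene in the 5 comparisons, with 95% intervals from the limma fit; filled points were called at an adjusted p under 0.05 and open points were not. The age panels place Cubn near -4.6 in wild type and -4.5 in knockout, and in the day 15 genotype panel Mamdc4 lies at 2.23 and Dab2 at 0.91.

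At day 15 the knockout duodenum had more Mamdc4 and more Dab2 than the wild type, while Cubn, Amn and Lrp2 did not pass. Thus 2 of 5 members were higher and 0 lower, where 3.83% of all genes were called, 1.81% higher and 2.03% lower. The day 15 arrays of both genotypes also enter the age comparisons, so these differences are not independent of the falls with age.

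Mamdc4 was at 10.80, 10.79 and 10.54 in knockout against 8.16, 8.48 and 8.80 in wild type, with a gap of 1.75 between the groups. The means were 10.71 ± 0.14 and 8.48 ± 0.32 (SD, n = 3), a log2 difference of 2.23 (SE 0.13, 95% interval 1.96 to 2.50, limma adjusted p = 5.7e-07), or 4.69-fold. Leaving out any single array kept it between 2.07 and 2.39. Beside a covariate for smooth muscle it was 2.22 (adjusted p = 9.0e-04).

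Dab2 was at 10.98, 11.18 and 11.05 in knockout against 9.87, 10.25 and 10.36 in wild type, again without overlap (gap 0.62). Its means in wild type and knockout were 10.16 ± 0.26 and 11.07 ± 0.10 (SD, n = 3), a log2 difference of 0.91 (SE 0.12, 95% interval 0.65 to 1.18, limma adjusted p = 8.9e-04), or 1.88-fold. With both features averaged it was 0.48 (adjusted p = 0.0021), and beside the smooth muscle covariate it was 1.11 but no longer called (SE 0.21, adjusted p = 0.052). Wild type replicate 1 was the lowest of the 3 wild type arrays in Mamdc4, Dab2 and Cubn alike.

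Cubn and Amn were above all wild type arrays on each knockout array at day 15 without passing the test over all genes. With Dab2 and Mamdc4, 4 of 5 members were separated in this way, as were 9.09% of all genes. For Cubn the groups stood 0.094 apart, and the log2 difference was 0.26 (SE 0.21, 95% interval -0.19 to 0.71, limma adjusted p = 0.66). For Amn they stood 0.18 apart, with 9.07 ± 0.10 in knockout and 8.69 ± 0.10 in wild type (SD, n = 3) and a log2 difference of 0.38 (SE 0.10, limma adjusted p = 0.059). That value was called with an intensity trend (adjusted p = 0.031), with a filter on dim genes (0.033) and from the 6 day 15 arrays alone (0.042). Lrp2 gave -0.052 (95% interval -0.24 to 0.14, limma adjusted p = 0.88) with overlapping groups.

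Markers of other tissues were also at different levels at this age, where 1.81% of all genes were called higher in knockout and 2.03% lower. Of 12 smooth muscle genes 3 were lower in knockout (list mean 10.46 to 10.64, against 10.75 to 10.84 in wild type). Of 11 stomach and Brunner gland genes 3 were lower (9.28 to 9.88 against 9.72 to 9.94). None of 11 enterocyte or 8 epithelial markers was called. The enterocyte list mean was still higher on every knockout array, at 13.07 to 13.09 against 12.995 to 13.04 in wild type. Of 10 pancreatic acinar genes, 11 fibroblast and mesothelium genes and 6 ileal genes 0 were called (limma), and their list means did not overlap between genotypes either. The pancreatic mean was 12.13 to 12.65 in knockout against 12.73 to 12.83 in wild type, the fibroblast mean 9.62 to 9.66 against 9.73 to 9.85, and the ileal mean 7.94 to 7.98 against 7.81 to 7.88. Relative to the epithelial mean, Mamdc4 was still higher by 2.18 and Dab2 by 0.86, both called. Of 12 macrophage markers 1 was higher (Lyz2, 0.77) and 0 lower. The median over that list was -0.108, and its mean per array was 8.31 to 8.52 in knockout against 8.40 to 8.54 in wild type. The part of these cells and tissues in the differences was not tested.

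At day 30, 0 of the 5 genes were called between genotypes (limma; also 0 at an unadjusted p under 0.05), where 1.98% of all genes were called, 1.04% higher and 0.943% lower. Mamdc4 differed by -0.021 (95% interval -0.30 to 0.25, limma adjusted p = 0.98) and Dab2 by -0.029 (95% interval -0.29 to 0.23, limma adjusted p = 0.97), both with overlapping groups. Cubn gave 0.34 (95% interval -0.12 to 0.79, limma adjusted p = 0.63). Its value was 0.040 without knockout day 30 replicate 2, 0.53 without knockout day 30 replicate 1, 0.154 without wild type day 30 replicate 2 and 0.663 with Xist as a covariate, not called in any of these. Amn gave 0.17 (95% interval -0.049 to 0.39, limma adjusted p = 0.61), with 0.055 without wild type day 30 replicate 3, 0.271 without replicate 2 of that group and 0.105 with Xist as a covariate, not called in any of these. Lrp2 gave -0.006 (95% interval -0.20 to 0.18, limma adjusted p = 0.99). Intervals that include 0 do not show equal levels.

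The fall with age was steeper in knockout for Mamdc4 and Dab2, by a direct test of the difference, and the other 3 genes did not pass. Here 2 of 5 members were called lower and 0 higher, where 0.456% of all genes were called, 0.226% lower and 0.231% higher, and this comparison uses all arrays of the earlier ones. For Mamdc4 the difference between age changes was -2.25 (SE 0.18, limma adjusted p = 9.3e-05), with -2.41 to -2.09 when single arrays were left out. The Mamdc4 genotype differences behind it were 2.23 at day 15 and -0.021 at day 30. For Dab2 the difference between age changes was -0.94 (SE 0.17, limma adjusted p = 0.034). That call ended without wild type day 15 replicate 2, wild type day 30 replicate 2 or 3, knockout day 15 replicate 2 or 3, or knockout day 30 replicate 1 or 3, with values of -0.99, -0.90, -0.92, -0.89, -0.95, -0.98 and -0.85 in that order and adjusted p of 0.063 to 0.10. It also ended relative to epithelial markers (-0.88, adjusted p = 0.062) and with smooth muscle (-1.10, adjusted p = 0.12) or Xist (-0.88, adjusted p = 0.23) as a covariate.

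Ordered by level, Mamdc4 ran from knockout day 15 through wild type day 15 to both day 30 groups, whose values interleaved, and Dab2 had the same order. Cubn and Amn were highest in knockout at day 15, then in wild type at day 15. For Cubn the day 30 groups interleaved at the bottom. For Amn, wild type day 15 overlapped both day 30 groups.

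Other genes of the uptake route are given as lists. The lists were drawn up with earlier results of these data known and are given as counts, to be read against the 17% of all genes called lower and 12.3% higher with age in wild type, and 17.2% and 13.8% in knockout. Among 36 genes for clathrin, adaptors and endosomes, 7 were lower and 3 higher with age in wild type (median -0.061), and 13 lower and 5 higher in knockout (median -0.097). The wild type counts are near the shares of all genes. The lower ones included Clcn5, an endosomal chloride exchanger needed for uptake in kidney tubules (-0.55, SE 0.07 in wild type; -0.94, SE 0.07 in knockout), and Ocrl, a phosphoinositide phosphatase of endosomes (-0.51 and -0.57). Dnm2, the dynamin that cuts off coated pits, rose in both (0.34 and 0.29). Among 12 relatives of Lrp2, 2 were lower and 2 higher in wild type, and 3 lower and 2 higher in knockout, within -0.51 and 0.30 (medians -0.056 and -0.03). They included Lrp12 (-0.51 and -0.49), Lrp8 (0.30 and 0.27) and Lrp10 (0.28 and 0.26).

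Of 15 genes for receptor chaperones, ligands and the vitamin B12 route, 5 were lower and 3 higher with age in wild type, and 4 lower and 2 higher in knockout (medians 0.014 and 0.022). Lrpap1, the chaperone of megalin, fell in both (-0.38 and -0.35). Lmbrd1, which carries vitamin B12 out of lysosomes, did so too (-0.63 and -0.56). Cblif, which encodes intrinsic factor, the carrier that brings vitamin B12 to cubilin, rose in wild type (0.66, SE 0.10, limma adjusted p = 3.3e-04) and was at -0.16 in knockout (limma adjusted p = 0.29). At day 30 it was lower in knockout (log2 difference -0.56, SE 0.10, limma adjusted p = 0.015). Its difference between age changes was -0.82 (SE 0.15, limma adjusted p = 0.033). Cblif is also 1 of the 11 stomach and Brunner gland genes. Of these, 3 were lower in knockout at day 15 (against 2.03% of all genes), where Cblif was at 0.26 (limma adjusted p = 0.24). At day 30, 2 were lower, Cblif among them (against 0.943% of all genes). The part of attached stomach in the Cblif values was not tested. Tcn2, which encodes the plasma carrier of the vitamin, and Cd320, which encodes its receptor, passed in none of the 5 comparisons. The folate receptor gene Folr1 fell in wild type (-1.28) and in knockout (-3.13), a difference between age changes of -1.84 (SE 0.23, limma adjusted p = 0.0029). Pigr, which carries immunoglobulin A outward to the lumen, rose (1.24 and 1.34).

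Genes of lysosomal digestion, the last step of the route, mostly fell with age. Of 27 measured, 19 were lower and 1 higher in wild type (median -0.34) and 20 lower and 1 higher in knockout (median -0.48). The cathepsin gene Ctsl (-1.54, SE 0.10; -2.23, SE 0.10), the sialidase gene Neu1 (-1.28 and -1.81) and the peptidase gene Tpp1 (-0.74 and -0.96) were among them. Ctsc was the gene that was higher (0.44 and 0.39). At day 15, 5 of 27 were higher in knockout and 0 lower, namely Gusb (0.62), Glb1 (0.56), Ctsl (0.52), Neu1 (0.40) and Hexa (0.40), which encode lysosomal hydrolases (list median 0.076, against -0.010 over all genes). Of all genes, 1.81% were higher and 2.03% lower in knockout at day 15. Clcn5 (0.34) and Rab11a, a small GTPase of recycling endosomes (0.33), were the 2 of 36 endosomal genes that were higher at that age. At day 30, 1 of 27 lysosomal genes was higher (Gusb, 0.38) and 1 lower (Mcoln1, -0.31), against 1.04% and 0.943% of all genes. None of the 27 or the 36 was called for a difference between age changes.

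**Figure D3:**
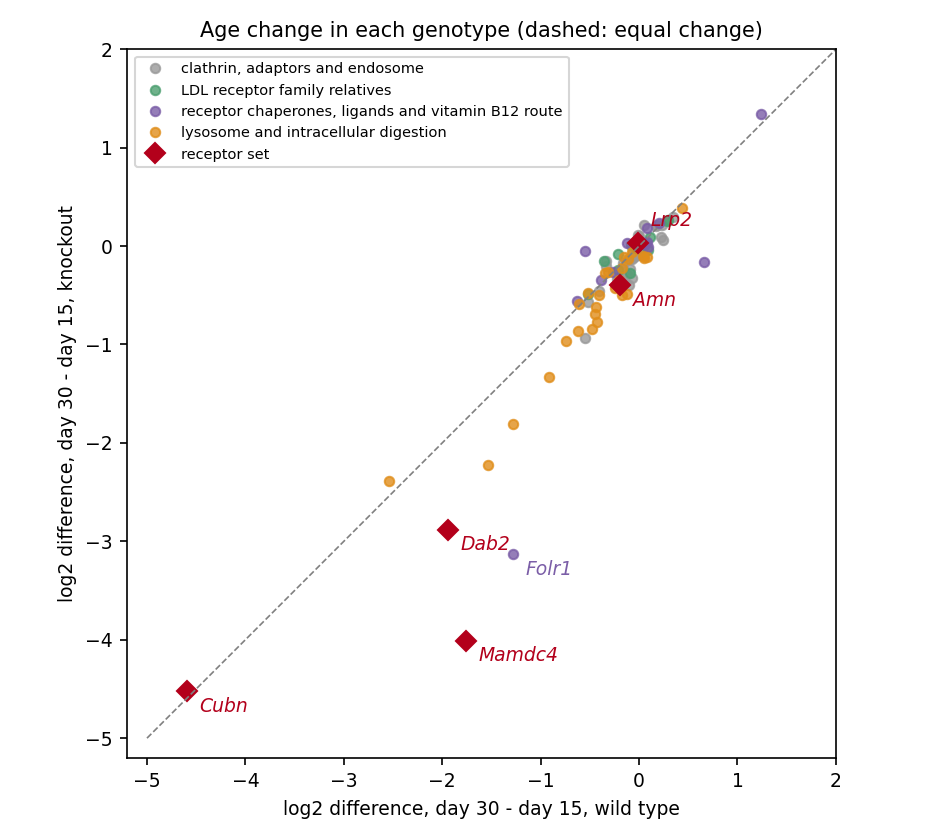
Log2 difference from day 15 to day 30 in wild type (horizontal axis) and in knockout (vertical axis) for the 5 genes (diamonds) and the genes of 4 lists of the uptake route (circles); the dashed line marks equal change. Cubn lies on the line at -4.60 and -4.52, while Mamdc4 (-1.76 and -4.01), Dab2 (-1.94 and -2.88) and Folr1 (-1.28 and -3.13) lie below it.

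For each member, the 3 genes with the most similar profile were found as those with the smallest root mean square difference over the 12 arrays, after each gene was centred on its mean. Cubn was nearest to Lect2 (0.46), Tdrp (0.50) and Smcp (0.52). For Dab2 they were Gpx3 (0.15), a secreted glutathione peroxidase, Hyal5 (0.21) and Stra6l (0.26). Mamdc4 was nearest to Folr1 (0.38), Hyal5 (0.51) and Ifi202b (0.54). Folr1 was at 7.75 in wild type and 9.60 in knockout at day 15 and at 6.47 in both at day 30. Gpx3 was at 10.84 and 11.58 at day 15 and at 8.63 and 8.56 at day 30. The neighbours of Amn were Castor2 (0.117), Spns2 (0.117) and Cebpa (0.12), and those of Lrp2 were Olfr46, Apoa2 and Col5a3 (0.044 to 0.049), which is the closeness of flat profiles. Between members, Dab2 and Mamdc4 were 0.54 apart and Cubn and Amn 2.15. All these distances come from the same 12 arrays and carry no test.

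**Figure D4:**
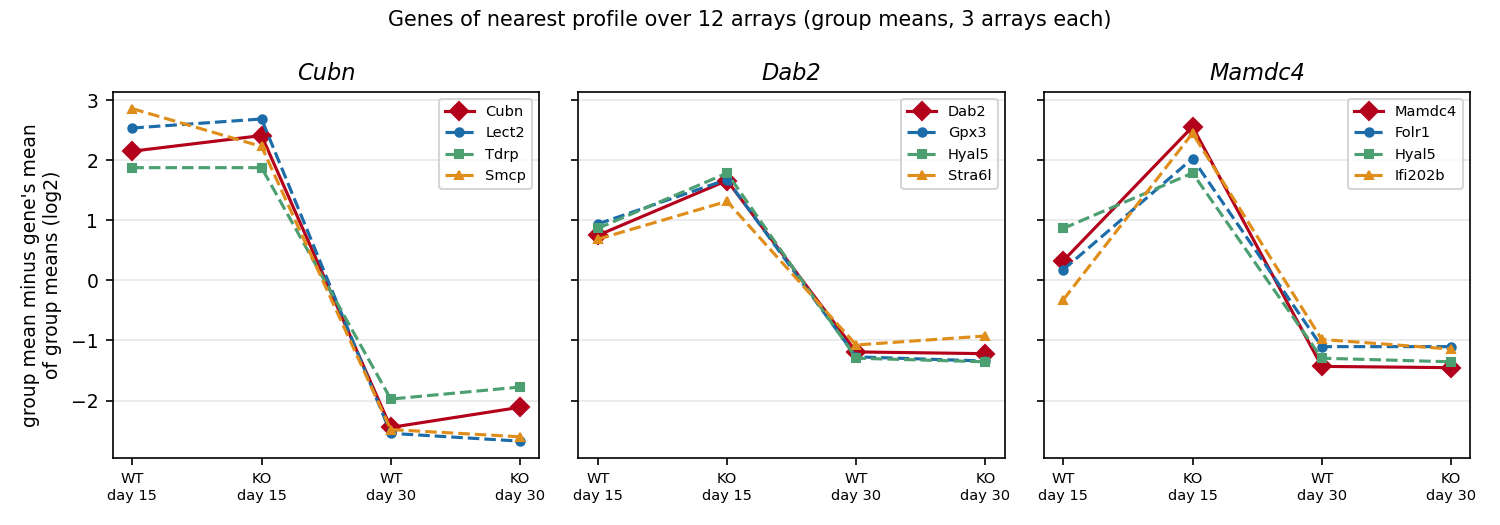
Group means of Cubn, Dab2 and Mamdc4 (diamonds, solid line) and of the 3 genes nearest to each in profile (dashed lines), each minus the gene's mean of group means (log2, vertical axis), by genotype and day. At day 15 the means of Dab2, Mamdc4 and their neighbours are higher in knockout by 0.63 (Stra6l) to 2.77 (Ifi202b), while the neighbours of Cubn differ by -0.63 (Smcp) to 0.15 (Lect2). The neighbours were chosen on these same arrays, so their likeness to each member follows from the choice.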

How the data were processed

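Total RNA of 12 pooled duodenal samples was hybridised to whole-transcript arrays. The deposited values are log2 expression values, made with RMA in Affymetrix Expression Console 1.1 per the submitters' processing notes. As a method, RMA corrects background, quantile-normalizes between arrays and summarises probes per feature on a log2 scale, and the values run from 2.74 to 14.81. Quantile normalization removes changes shared by most genes. The build behind the array's gene names was not given in the sources used here, so no gene coordinates are printed; promoter coordinates are RefSeq's, build GRCm38.p6.

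Of 35557 features, 21789 had 1 gene symbol, 1621 several and 12147 no listed gene. The brightest feature stood for each gene (999 genes had several), which left 19938. With limma 3.58.1 in R 4.3.3, 1 linear model with a mean per group took in all 12 arrays, leaving 8 residual degrees of freedom, moderated with eBayes, and p-values were adjusted by Benjamini-Hochberg over all genes in each comparison. Pairs of members were compared by exact permutation of days within genotype. Arrays limit precision by their number, 3 per group. The code was tested on simulated data. No 2 arrays held the same values (highest correlation 0.9953).

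Members, 6 pathway lists and 10 marker lists (217 of 232 distinct genes measured; others not analysed here) were chosen with earlier results of these data known. Named genes are the 5 members, up to 3 called genes of smallest p per pathway list and comparison, partners of the members (Lrpap1, Cblif, Tcn2, Folr1, Prdm1, Maf, Onecut2) and the 3 nearest profiles. Ctsc, Cd320 and single marker genes were named after their values were seen, as were the 5 further motifs.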

Additional observations from a re-analysis of the deposited data

Results flagged for a closer look

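The age change of Mamdc4 differed between the genotypes by the interaction test, at -2.25 (knockout minus wild type, log2 scale), from -1.76 in wild type and -4.01 in knockout. At day 15 all 3 knockout arrays lay above all 3 wild type arrays, and at day 30 the arrays interleaved. The age change of Dab2 also differed by that test, at -0.94, from -1.94 in wild type and -2.88 in knockout, and this call was lost when any of 7 single arrays was left out.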

How the results depend on the processing

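Of the alternatives that kept all arrays, 242 of 265 values of the members kept their direction and side of the threshold. Amn at day 15 was called, at 0.376, with an intensity trend, a filter on dim genes (Lrp2 drops out, so it has no value there) or the compared arrays alone. With the trend 596 genes were called at day 30 and 177 for the difference between age changes; with the dim filter 598 and 160; with the compared arrays alone 480 at day 15 and 237 at day 30; with array weights 1218 at day 15 and 155 for the difference. Relative to epithelial markers, Amn in wild type was -0.32 (called), the Dab2 difference between age changes -0.882 (not called), and Lrp2 changed sign in knockout (-0.035) and at day 30 (0.005). With a smooth muscle covariate, calls were lost for Dab2 (-1.34) and Mamdc4 (-1.795) with age in wild type, Amn with age in knockout (-0.007), Dab2 at day 15 (1.111) and the Dab2 difference between age changes (-1.099). Signs then changed for Amn in wild type (0.341), Lrp2 in knockout (-0.391), Cubn at day 15 (-0.037) and Dab2 at day 30 (0.011), and counts were 37, 223, 78 and 30 for age in wild type, age in knockout, day 15 and the difference between age changes. With Xist, counts were 3829 for age in wild type, 185 at day 30 and 33 for the difference, where Dab2 gave -0.883 (not called), and at day 30 Dab2 (0.016) and Mamdc4 (0.078) changed sign. Lrp2 changed sign with age in wild type at equal array medians (0.025) and with array weights (0.007), which also turned it in knockout (-0.023) and in the difference (-0.03). Averaging features gave 1.729 for Dab2 against Mamdc4 (called), where the low and flat second Dab2 feature shrinks the Dab2 fall by arithmetic. Causes of the other changes were not tested.

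Leaving out single arrays gave 4561 to 5823 genes for age in wild type, 4990 to 5981 in knockout, 340 to 741 at day 15, 218 to 338 at day 30 and 47 to 123 for the difference between age changes. Amn in wild type ran from -0.293 to -0.077, and Amn against Lrp2 from -0.367 to -0.246. Lrp2 ran from -0.052 to 0.055 (wild type), -0.032 to 0.121 (knockout), -0.102 to 0.015 (day 15), -0.073 to 0.08 (day 30) and -0.021 to 0.133 (difference). Dab2 ran from -0.094 to 0.069 and Mamdc4 from -0.057 to 0.031 at day 30. The difference between age changes ran from -0.22 to 0.27 for Cubn and from -1.045 to -0.796 for Dab2. With the replicate number as a block, which changed no call of a member, the difference was -2.251 for Mamdc4 (limma adjusted p = 7.8e-04) and -0.942 for Dab2 (0.028), and 5726, 6039, 611, 331 and 80 genes were called. The labels do not say whether the numbers pair the samples. Of 18 same-numbered pairs 7 had a correlation over 0.1, with a range of -0.252 to 0.359. Differently numbered pairs reached -0.358 (wild type day 15 replicate 1 with knockout day 15 replicate 3). They also reached 0.373 (wild type day 30 replicate 1 with knockout day 30 replicate 3). Some arrays of different groups thus shared deviations, and the source of these was not tested. Signal limits Lrp2 and the second Dab2 feature, which lie low on the array. Day 30 group means of Cubn and Mamdc4 lay between the 39.93 and 46.75 percentile of all features. How far low signal bounds the size of their falls was not tested.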

Other observations

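Of 17 regulators of enterocyte maturation, 4 were lower and 6 higher with age in wild type, where 17% of all genes were lower and 12.3% higher, and 5 were lower and 5 higher in knockout, where 17.2% and 13.8% were. Prdm1, a repressor that keeps the suckling program of enterocytes, fell in wild type (-0.63, SE 0.14, limma adjusted p = 0.0049) and in knockout (-1.27, SE 0.14, limma adjusted p = 2.4e-05), and the difference between these falls did not pass (-0.64, SE 0.20, limma adjusted p = 0.30). Tcf7l2, a partner of beta-catenin, rose (0.78 and 0.80), and Klf4, a factor of differentiated epithelium, likewise (0.82 and 0.36). Klf4 was the 1 gene of this list called between genotypes at day 15 (0.47, limma adjusted p = 0.0075). Maf was at -0.009 in wild type (limma adjusted p = 0.94) and fell in knockout (-0.32, limma adjusted p = 0.0023). None of the 17 regulators, Maf included, was called for the difference between age changes. Of 16 other genes of suckling or weaned enterocytes, 5 were lower and 7 higher with age in wild type, and 5 lower and 8 higher in knockout. Lct, which encodes the milk sugar enzyme lactase, fell in both (-2.25 and -1.76), and at day 30 it was higher in knockout (0.71, SE 0.14, limma adjusted p = 0.021).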
